A study of Mus musculus with 3 samples.

Results

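Complement is a cascade of plasma proteins, and the 7 listed genes encode its C1q recognition molecule (C1qa, C1qb and C1qc), its central protein (C3), the receptors for the fragments C3a and C5a (C3ar1 and C5ar1) and properdin (Cfp). Members were all probe sets that the platform annotation pairs with exactly one of these symbols, without regard to their values. This gave 12 of the 45037 probe sets on the array, for 6 of the 7 genes. C3 was not analysed here because the annotation used lists no probe set for it.

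The values come from bone marrow cells of 10-week-old C57BL/6J mice, from a fraction that was positive for Sca-1 and negative for lineage markers and served as haematopoietic progenitors. There was 1 array from wild type mice, 1 from the transgenic genotype Tg(Ly6a-KDM1A*v2, Line 6 and 1 from the transgenic genotype Tg(Ly6a-KDM1A*v2, Line 3. KDM1A is the histone demethylase LSD1, and Ly6a is the gene of Sca-1. What drives the construct, how many animals went into a sample and of which sex is not stated in the labels. With 1 array for each genotype, the differences below carry no replicate error and no p-value, and fewer cells of a type cannot be told apart from less RNA per cell.

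Most complement proteins of the plasma are made by the liver. C1q is an exception: its 3 kinds of chain are made mainly by macrophages, dendritic cells and other myeloid cells, and they assemble into a molecule that binds antibody complexes, dying cells and pathogens and starts the classical pathway. C3a and C5a are small fragments released when C3 and C5 are cleaved. Their receptors are G protein-coupled receptors of myeloid cells, and C5aR1 is a chemoattractant receptor abundant on neutrophils. Properdin stabilises the C3 convertase of the alternative pathway and is stored in neutrophil granules.

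Intensities are linear values scaled by the authors, with array medians of 96.2, 116 and 99.0 in wild type, Line 6 and Line 3. Differences are line minus wild type on the log2(intensity + 16) scale, where 1 is 2-fold, and both lines are set against the same wild type array. Where a gene had several probe sets, the brightest stood for it, and 10864 genes with at least 1 array at or above its median were kept. Over these genes the differences had medians of 0.06 (Line 6) and 0.12 (Line 3), and the SD of Line 3 minus Line 6 was 0.38. Kdm1a read 2104, 2575 and 2979 in wild type, Line 6 and Line 3 on its brighter probe set and 916, 911 and 1482 on its dimmer one, a Line 6 difference of -0.01 there. Whether these mouse Kdm1a probe sets also read the KDM1A construct was not tested. Of the progenitor markers, Kit read 603, 899 and 923, whereas Slamf1 lay below the median of every array. Genes of the lineage panel were not absent and differed between the arrays. Itgam, the gene of CD11b, read 2653, 1088 and 713 in wild type, Line 6 and Line 3. Cd79a, a B cell receptor component, read 780.3, 2137 and 983, differences of 1.44 and 0.33. Of 7 kept genes of this panel, 1 (Cd79a) passed 2-fold upward in Line 6, as did 2.57% of all genes kept, and none in Line 3. Downward, 1 (Itgam) passed it in both lines, as did 2.07% of all genes. The medians of the 7 were 0.25 and -0.26. S100a8, a neutrophil marker, read 25535 in wild type, the highest value on that array.

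The 6 measured members lay on both sides of wild type. The C1q chains were higher by 2-fold or more in both transgenic lines, the C3a receptor was higher by less than 2-fold, properdin was lower by less than 2-fold, and the C5a receptor was lower, by more than 2-fold in Line 3. All 6 passed the filter on dim genes in wild type as well as in the lines, so none was kept only through the array where it was high. Of these 6, 3 were at least 2-fold higher in Line 6, where the share over all genes kept was 2.57%, and the same number were in Line 3, against 3.57%. None was at least 2-fold lower in Line 6 (2.41% of all genes) and 1 was in Line 3 (4.46%). The 3 C1q genes were past the limit upward in both lines, as were 1.35% of all genes, and no member was past it downward in both, as were 2.07%. With 6 genes these counts are a description.

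**Figure D1:**
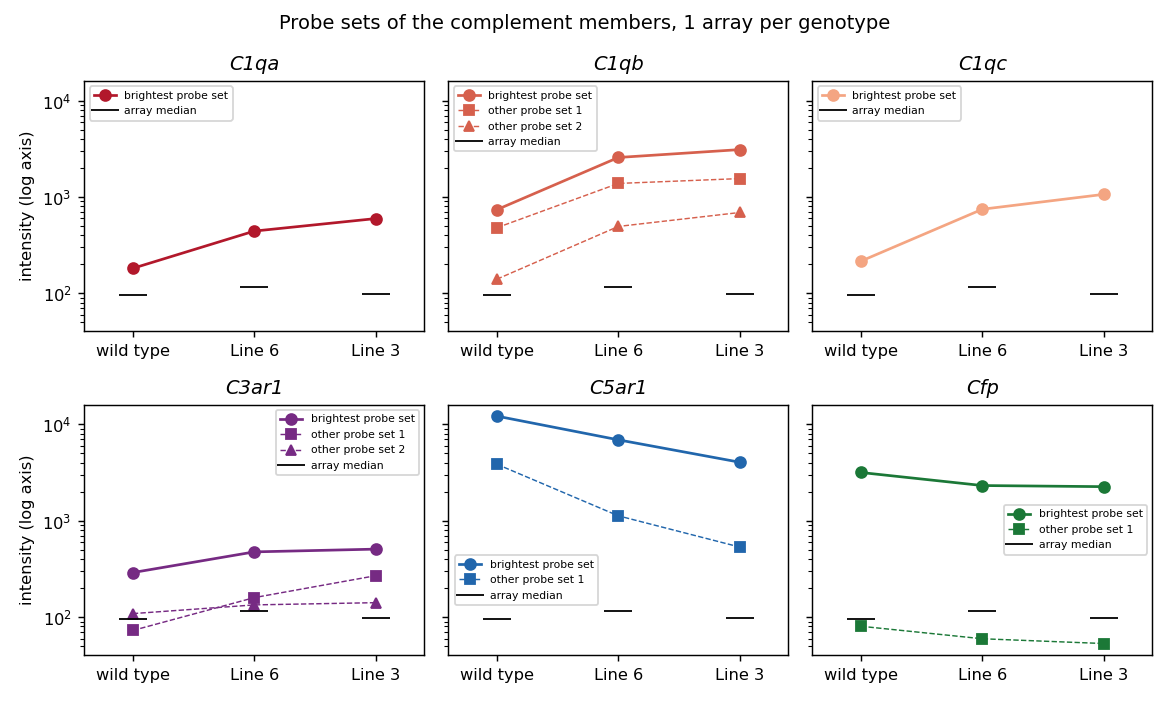
Intensity (log axis) of each of the 12 probe sets on the wild type, Line 6 and Line 3 arrays, 1 panel per gene; thin lines join the values of a probe set and black dashes mark the array medians. All C1qa, C1qb and C1qc probe sets were higher in both lines than in wild type, both C5ar1 probe sets were lower, and the dimmer Cfp probe set lay below every array's median.

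C1qa, the gene of the C1q A chain, read 182, 443 and 598 in wild type, Line 6 and Line 3 on its single probe set. The Line 6 array lay 1.21 above wild type and the Line 3 array 1.63 above, or 2.32-fold and 3.10-fold. The Line 6 difference was 0.96, below 2-fold, when each array was centred on its median, a scaling that lowered the median difference of all genes in Line 6 to -0.20.

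C1qc, the gene of the C chain, read 216, 747 and 1067 in wild type, Line 6 and Line 3, differences of 1.72 and 2.22. In Line 3 it was the 9th highest difference of the 10864 genes and in Line 6 the 39th. C1qb ranked 13th in Line 3 and 33rd in Line 6, and C1qa 53rd and 155th. The values of the wild type array were the lowest and those of the Line 3 array the highest on every C1q probe set.

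C1qb, the gene of the B chain, had 3 probe sets. The brightest read 739, 2573 and 3107 in wild type, Line 6 and Line 3, differences of 1.78 and 2.05. The next read 480.2, 1384 and 1554, with differences of 1.496 and 1.66. These both carry the _x_at suffix, which Affymetrix gives to probe sets whose probes may also match other transcripts. The third, with the plain _at suffix, read 141, 495 and 691, with differences of 1.71 and 2.18. On this plain probe set the Line 6 difference lay between those of the _x_at ones, and the Line 3 difference was above both.

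Together, 5 of 5 C1q probe sets passed 2-fold upward in both lines, where 1.54% of all probe sets on the array did. No other member had a probe set past the limit upward in both lines. The mean difference of the 3 chains was 1.57 in Line 6, over a range of 1.21 to 1.78, and 1.97 in Line 3, over a range of 1.63 to 2.22. Within the order of intensities on each array, which does not depend on the scaling, C1qa went from percentile 59.3 in wild type to 71.0 in Line 6 and 75.7 in Line 3. The brightest C1qb probe set went from percentile 79.2 to 93.7 and 94.9, and C1qc from 61.8 to 78.9 and 83.8.

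Between the lines, all 5 C1q probe sets were higher in Line 3 than in Line 6. On the brightest probe sets Line 3 minus Line 6 was 0.42 for C1qa, 0.27 for C1qb and 0.50 for C1qc. With centring on array medians they were 0.64, 0.50 and 0.73, and with probe set medians C1qb was at 0.17, beside an SD of 0.38 over all genes. None reached 2-fold under these settings, a limit that 0.709% of all genes passed upward as reported.

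The C1q genes lie side by side on chromosome 4 in the order C1qb, C1qc, C1qa, with no other protein-coding gene between them in the RefSeq annotation (GRCm38.p6). RefSeq promoters were matched for 5 of the 6 measured members, and C1qa was not among them. The 250 bases before the start of C1qb and C1qc are shown because these neighbouring genes were higher together, and those of C5ar1 because it went the other way. Capitals mark GAGGAA, a core that the myeloid factor PU.1 can bind, and the sequence TGCTGA, a half-site of MAF factors, each on either strand (as TTCCTC or as TCAGCA). Each sequence is on the minus strand of GRCm38.p6 and runs 5′ to 3′ towards the gene.
C1qb (chr4:136886201-136886450): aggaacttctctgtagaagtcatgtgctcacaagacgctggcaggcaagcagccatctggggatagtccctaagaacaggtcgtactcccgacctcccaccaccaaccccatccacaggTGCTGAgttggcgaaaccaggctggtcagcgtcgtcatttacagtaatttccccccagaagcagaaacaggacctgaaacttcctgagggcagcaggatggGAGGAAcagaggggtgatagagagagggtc
C1qc (chr4:136892915-136893164): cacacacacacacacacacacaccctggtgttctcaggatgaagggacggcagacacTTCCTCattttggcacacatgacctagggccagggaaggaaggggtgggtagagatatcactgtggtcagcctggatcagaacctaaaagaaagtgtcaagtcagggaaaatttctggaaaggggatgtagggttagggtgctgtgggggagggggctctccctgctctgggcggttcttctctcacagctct
C5ar1 (chr7:16259339-16259588): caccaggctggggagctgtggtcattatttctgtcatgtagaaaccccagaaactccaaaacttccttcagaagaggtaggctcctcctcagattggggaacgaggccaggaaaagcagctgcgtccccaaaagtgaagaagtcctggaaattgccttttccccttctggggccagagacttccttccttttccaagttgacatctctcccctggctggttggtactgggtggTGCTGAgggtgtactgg

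The C1qb window held GAGGAA at 30 to 25 bases before the start and TGCTGA at 131 to 126 bases before it, and the latter overlapped an E-box. The C1qc window held GAGGAA on the opposite strand, at 193 to 188 bases before the start, and no TGCTGA. In C5ar1 the window held TGCTGA at 17 to 12 bases before the start and no GAGGAA. Such matches are common, since GAGGAA was present in 23.3% and TGCTGA in 16.1% of the 32817 promoter windows of this length. Further sequences searched on both strands were GAAANNGAA, a pattern of interferon regulatory factors, and TATAAA, the TATA box, present in 7.12% and 12.4% of the windows, and the E-box CANNTG, present in 66.2%. Of these, C1qb held 3 E-boxes, C1qc held 1, and C5ar1 held 1 E-box and 1 GAAANNGAA. C3ar1 held 1 TGCTGA and 1 TATAAA, and none of the 5 patterns was in the Cfp window. A match describes letters only, and binding was not measured.

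C3ar1, the C3a receptor gene, was higher in both lines on all 3 probe sets, by amounts that differed between them. The brightest read 290.0, 475 and 508 in wild type, Line 6 and Line 3, differences of 0.68 and 0.78, with 0.42 in Line 6 after centring. Another read 72.7, 159 and 269, differences of 0.98 and 1.68, and its wild type value lay below that array's median. The third read 109, 134 and 141, close to the array medians of 96.2, 116 and 99.0, with differences of 0.27 and 0.33. The direction was shared by these probe sets, whereas a 2-fold difference was reached on 1 of them and in Line 3 alone.

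C5ar1, the C5a receptor gene, was lower in both lines on each of its 2 probe sets. The brighter one gave 12176, 6908 and 4044 in wild type, Line 6 and Line 3, differences of -0.82 and -1.59, or 1.76-fold and 3.00-fold lower. Its dimmer probe set read 3856, 1125 and 533, differences of -1.76 and -2.82, or 3.39-fold and 7.05-fold lower. The dimmer probe set was past 2-fold downward in both lines, where 1.47% of all probe sets on the array were. Both probe sets put the 3 arrays in the same order, with wild type highest and Line 3 lowest.

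The probe sets of C5ar1 thus differed in the size of the difference, and the 2-fold call in Line 6 depended on which was used. The brighter went from percentile 99.6 of the wild type array to 98.5 and 96.4, and the dimmer from 96.1 to 85.0 and 74.0. Whether the brighter probe set was near saturation was not tested. C5ar1 was also lower in Line 3 than in Line 6, by -0.77 on the brighter and -1.05 on the dimmer probe set. For comparison, 1.58% of all genes were at least 2-fold lower in Line 3 than in Line 6 on their brightest probe set, and C5ar1 was not among them.

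Cfp, the properdin gene, gave 3166, 2318 and 2257 in wild type, Line 6 and Line 3 on its brighter probe set, differences of -0.45 and -0.49, with -0.72 in Line 6 after centring. Its dimmer probe set read 80.4, 59.7 and 53.2, below the median of every array, with differences of -0.35 and -0.48. Line 3 minus Line 6 was -0.04 on the brighter probe set and 0.19 with centring. Its Line 6 difference was the 1130th lowest of the 10864 genes.

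**Figure D2:**
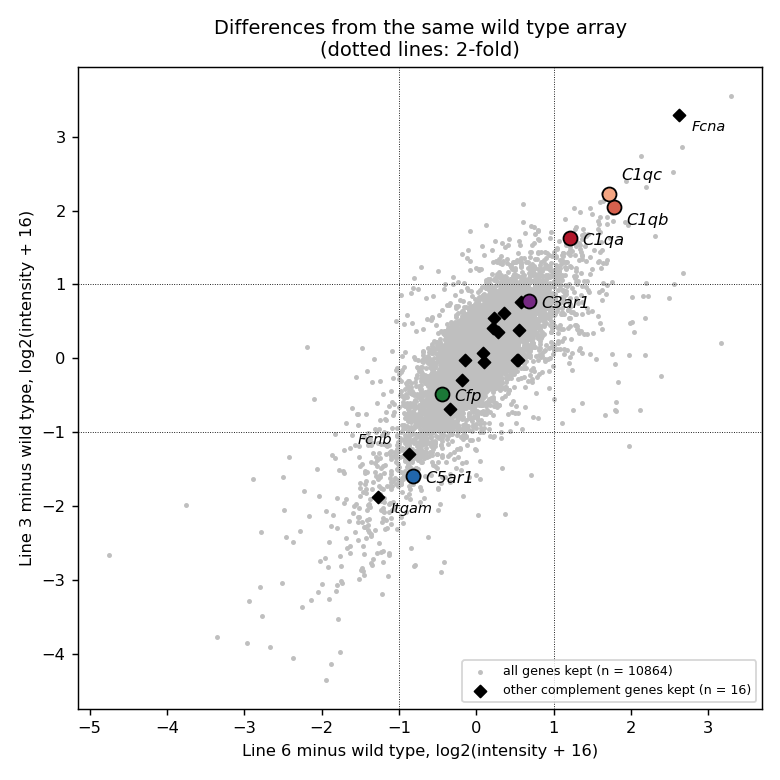
Difference from wild type in Line 6 (x axis) and Line 3 (y axis) on the log2(intensity + 16) scale, for 10864 genes (grey), 16 other complement genes (black diamonds) and the 6 members (coloured circles). C1qa, C1qb and C1qc lie beyond 2-fold (dotted lines) at the upper right, C5ar1 lies past it for Line 3 only, and both axes share the wild type array.

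The other genes of complement were taken from lists of 50 genes, of which 39 had a probe set and 16 were kept. Of the 16, 1 passed 2-fold upward in both lines, 1 passed it downward and 14 did neither. Over all genes kept the shares were 1.35% upward and 2.07% downward, and with 16 genes these counts are a description. The differences of the 16 had medians of 0.22 (Line 6) and 0.03 (Line 3), against 0.06 and 0.12 over all genes. With centring they were -0.03 and -0.01, against -0.20 and 0.08 over all genes, and 2 genes passed downward. The remaining 23 genes with a probe set, among them the partner proteases of C1q (C1ra and C1s1), C2, Cfb, Hc (the gene of C5), C6 and C9, lay below the median of all 3 arrays, where a level cannot be told from background.

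Among recognition molecules and proteases that start the classical and lectin pathways, 3 of 12 genes with a probe set were kept. Fcna, the gene of ficolin A, a lectin pathway recognition protein made by macrophages, read 146, 987 and 1581 in wild type, Line 6 and Line 3, differences of 2.63 and 3.30. Fcnb, the gene of ficolin B, which is found in cells of the neutrophil line in mouse, read 7597, 4132 and 3081, differences of -0.88 and -1.30. The ficolin genes were thus on opposite sides of wild type in both lines. Masp2, a lectin pathway protease gene, differed by 0.54 and -0.02.

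Of the complement receptors and binding proteins other than C3ar1 and C5ar1, 7 of 9 genes with a probe set were kept. Itgam, the alpha chain of complement receptor CR3, read 2653, 1088 and 713 in wild type, Line 6 and Line 3, differences of -1.27 and -1.87. It was the single gene of this list past 2-fold, and it is itself a marker used to remove lineage-positive cells. Itgb2, the beta chain shared by CR3 and CR4, differed by -0.34 and -0.69, and Itgax, the alpha chain of CR4, by 0.36 and 0.62. C1qbp, a mitochondrial protein first described as binding C1q, differed by 0.22 and 0.55. Vsig4, a complement receptor of tissue macrophages, lay below the median of every array.

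None of the 5 kept regulators, which protect host cells or limit the cascade, differed by 2-fold in either line on its brightest probe set. Clu, the gene of clusterin, differed by 0.58 and 0.76 there, and by 1.13 and 1.12 on a dimmer probe set that read 48.7 in wild type. Cd59a, an inhibitor of the membrane attack complex, differed by 0.56 and 0.39, and by -0.12 and 0.19 on its other probe set. Serping1, the C1 inhibitor gene, differed by 0.53 and -0.02, and Cr1l, the gene of the mouse regulator Crry, by -0.15 and -0.02. Of the terminal pathway, C8g alone was kept, with differences of 0.22 and 0.41.

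**Figure D3:**
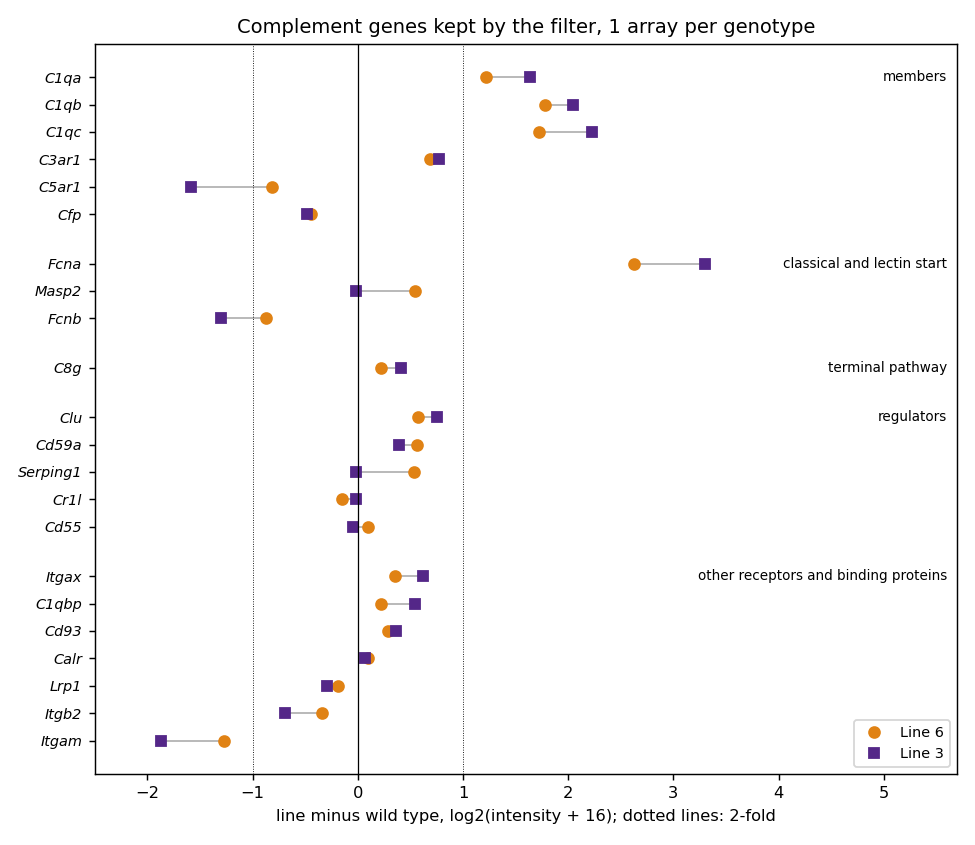
Difference from wild type on the log2(intensity + 16) scale in Line 6 (orange circles) and Line 3 (purple squares) for the 6 members and the 16 other complement genes kept, grouped by role. Past 2-fold (dotted lines) in both lines lie C1qa, C1qb, C1qc and Fcna on the higher side and Itgam on the lower side.

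Markers of several cell types were followed on the same arrays. Their lists were chosen with earlier results of these data known, so their counts beside all genes are a description. Of 13 kept tissue macrophage markers, 7 passed 2-fold upward in both lines and none passed it downward. Over all genes kept the shares were 1.35% upward and 2.07% downward. The count of 7 became 6 under each of the 3 other scalings. Cd5l, Siglec1, Mertk and Spic among the 7 lay below the wild type median and were kept only through the lines, so the count favours higher genes. Over all 17 with a probe set the medians were 0.80 (Line 6) and 1.08 (Line 3), and the summed intensity was 8362, 11967 and 13602 in wild type, Line 6 and Line 3.

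The 6 kept macrophage markers with the largest mean absolute differences were all on the higher side. Cd5l, a protein secreted by macrophages, differed by 3.30 and 3.55, and Mrc1, the mannose receptor gene, by 1.94 and 2.41. Cd163, a scavenger receptor for haemoglobin, differed by 1.57 and 1.76, and Axl, a receptor for dying cells, by 1.38 and 1.75. Spic, a transcription factor gene of iron-recycling macrophages, differed by 1.34 and 1.99 on its brightest probe set and by 0.58 and 0.98 on another, and Siglec1, an adhesion receptor of macrophages, by 1.52 and 1.46. Other kept markers lay on the lower side: Cd68, a lysosomal protein gene, differed by -0.41 and -0.34, and Slc40a1, the iron exporter gene, by -0.22 and -0.21. Marco, Timd4, Lyve1 and Clec4f lay below the median of every array. The part of macrophages in the C1q and C3ar1 differences was not tested.

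Of 6 kept progenitor markers, 3 passed 2-fold upward in both lines, as did 1.35% of all genes kept. These 3 were Procr (1.60 and 2.12), Mecom (1.69 and 1.82) and Meis1 (1.03 and 1.11). The medians over all 7 with a probe set were 0.91 and 1.11. The count was 2 under each of the 3 other scalings, and Procr and Mecom lay below the wild type median. None of 5 kept dendritic cell markers passed 2-fold in either line on its brightest probe set. The medians over all 6 with a probe set were 0.39 and 0.56. Zbtb46, 1 of these markers, differed by 0.64 and 0.59 on its brightest probe set. On dimmer ones it differed by 0.29 and 0.19, by 1.34 and 1.26 with a wild type value of 61.1, and by -0.38 and 0.52.

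Neutrophil markers were read beside C5ar1, Cfp, Fcnb and Itgam. Of 11 kept neutrophil markers, 5 passed 2-fold downward in both lines (7 with centring) and none passed it upward. Over all genes kept the shares were 2.07% downward and 1.35% upward. The 11 markers had medians of -0.88 and -1.38 and summed intensities of 141389, 98494 and 76568 in wild type, Line 6 and Line 3. Smaller differences were those of S100a9 (-0.04 and -0.25), S100a8 (-0.18 and -0.45) and Ngp (-0.27 and -0.58). Itgb2l, an integrin subunit gene, read 4233, 1106 and 586, differences of -1.92 and -2.82. Mmp8, a collagenase gene, differed by -1.28 and -2.63, and Mmp9, gelatinase B, by -1.21 and -2.61. Cxcr2, a chemokine receptor of neutrophils, read 3500, 1353 and 648 in wild type, Line 6 and Line 3.

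Of 11 kept monocyte markers, 1 passed 2-fold downward in both lines (2 with centring), as did 2.07% of all genes kept. The 11 markers had medians of -0.50 and -0.44 and summed intensities of 62470, 44281 and 41126. The marker past the limit was Cd14, a co-receptor for lipopolysaccharide, which read 436, 63.7 and 132 in wild type, Line 6 and Line 3. Chil3, a chitinase-like protein gene, differed by -0.85 and -1.23, Fn1, the fibronectin gene, by -0.66 and -1.28, and Nr4a1, a nuclear receptor gene, by -0.97 and -0.44. Cx3cr1, the fractalkine receptor gene, lay above wild type on its brightest probe set, at 0.13 and 0.12. Its other probe set differed by -0.36 in Line 6 and 0.49 in Line 3. The part of neutrophils and monocytes in the C5ar1 and Cfp differences was not tested.

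The genes nearest to the members by their pair of differences were sought over the 3 arrays as a description. Nearest to the mean of the C1q chains were Sytl4 (1.60 and 1.91), Copz2 (1.499 and 1.95), Rab27b (1.58 and 1.86), Fam185a (1.47 and 2.03) and Slc16a9 (1.70 and 1.92), at Euclidean distances of 0.07 to 0.14. These were dimmer than the wild type median, at 15.3 to 56.7, where folds depend most on the pseudocount. Nearest to C5ar1 were Mxd1 (-0.84 and -1.61), Padi4 (-0.74 and -1.58) and Mirt1 (-0.85 and -1.51). The 3 nearest to C3ar1 were Crem, Ago3 and Mettl16, and those nearest to Cfp were Igsf6, Nat8l and Bin3, at distances of at most 0.0142.

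**Figure D4:**
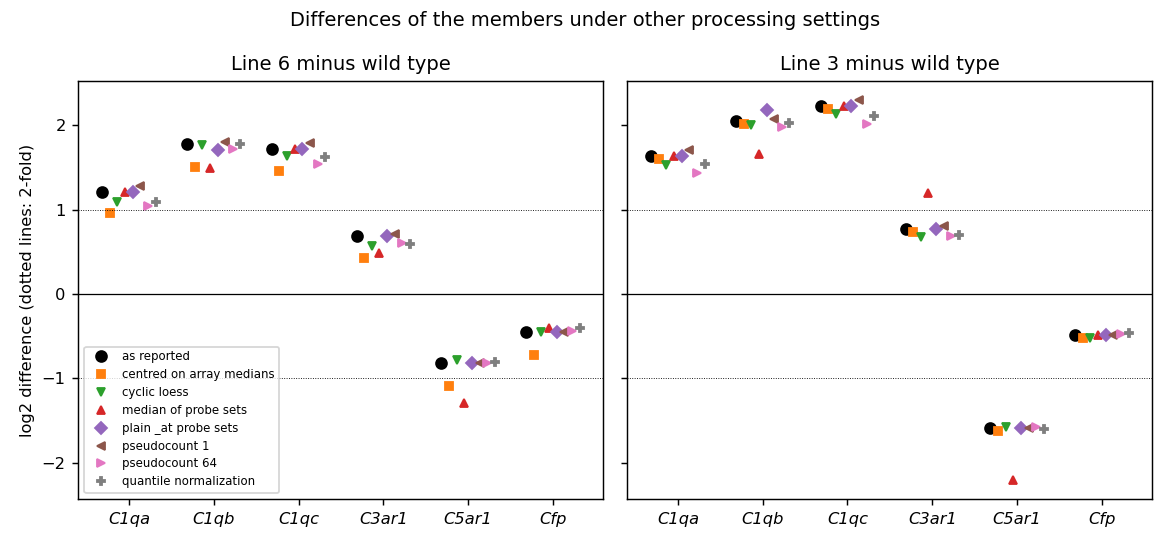
Log2 difference from wild type in Line 6 (left) and Line 3 (right) for the 6 members as reported (black) and under 7 other settings of scaling, pseudocount and probe set. No member changed sign, C1qa in Line 6 was 0.96 with centring on array medians, and C5ar1 in Line 6 reached -1.29 with the median of its probe sets.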

How the data were processed

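Total RNA was amplified, labelled with biotin and hybridised to Affymetrix arrays, per the labels' protocols. The deposited values are linear intensities, with 1 value for each probe set on each array. Which software and summary method the authors used is stated in none of the sources used here. The mean after trimming 2% from each end was 497 on every array, so the authors had scaled the arrays to 1 level. No detection calls came with the values, and precision is limited by the number of arrays.

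Of 45037 probe sets, 34945 had 1 gene symbol in the platform annotation, 932 had several and 9160 were not listed. Symbols were updated through Entrez identifiers for 34741. Intensities were transformed as log2(intensity + 16). A gene was kept if its value reached the array median on 1 or more arrays, and was counted as higher or lower at 2-fold. With 1 array per genotype no test was made in the main analysis. The steps were checked on simulated data. Alternatives were 3 scalings, pseudocounts of 1 and 64, other probe set rules, filters and limits, and a limma fit with both lines in 1 group. The members, lists and motifs were chosen with earlier results of these data known, and genes were named by rule: all members, the 4 leading kept genes of each complement, monocyte and neutrophil list, the 6 leading macrophage markers and the nearest genes by distance. Complement genes and markers below the filter, progenitor markers, Mertk, Cd68, Slc40a1, Cx3cr1, S100a8, S100a9, Ngp, Zbtb46 and Cd79a are named outside it. Python 3.11.15, numpy 2.4.6, pandas 2.3.3, R 4.3.3 and limma 3.58.1 were used.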

Additional observations from a re-analysis of the deposited data

How the results depend on the processing

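Over the alternatives no member changed sign against wild type in either line. The number of members past 2-fold upward in both lines was 3 as reported and 2 to 4 under the other scalings, pseudocounts, probe set rules, filters and limits, where 2 came with centring on array medians and with a 3-fold limit. The number at least 2-fold lower in both was 0 as reported and 1, C5ar1, with centring, with a 1.5-fold limit and with probe set medians. In the limma fit with the lines as 2 samples of 1 group, 0 members and 0 of 10864 genes passed an adjusted p of 0.05 (973 higher and 759 lower genes at an unadjusted p under 0.05). There the mean C1q difference was 1.77, and limma's adjusted p was 0.116 for C1qa, 0.0912 for C1qb, 0.103 for C1qc, 0.217 for C3ar1, 0.208 for C5ar1 and 0.375 for Cfp. The fit rests on the spread between the lines and has no second wild type array. Over the other alternatives the mean C1q difference ran from 1.31 to 1.62 in Line 6 and from 1.81 to 2.03 in Line 3. With probe set medians C3ar1 reached 1.19 in Line 3, and Line 3 minus Line 6 for Cfp ran from -0.08 to 0.19. All genes at least 2-fold higher in both lines numbered 147 as reported, 88 after quantile normalization, 76 after centring, 85 after cyclic loess, 202 and 51 with pseudocounts of 1 and 64, 101 with the median of probe sets, 272 with no filter and 30 with the filter at percentile 75. Lower genes numbered 225 as reported and 341 after centring. No paired analysis was possible because each group had 1 sample.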
